A study of Homo sapiens with 7 samples.

Results

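The genes that make cholesterol and fatty acids were followed in NCI-H520 cells, a cancer cell line that was derived from squamous lung carcinoma, after silencing of deadenylases, the enzymes that shorten the poly(A) tail of mRNA. The set held 31 genes, chosen by name as enzymes and regulators of these pathways, out of 19063 genes named on the array. Each gene was represented by its brightest probe. All 31 genes were above background on all 7 arrays, so none was lost to a filter on dim signal. By role, 7 encode mevalonate steps, 11 sterol steps, 6 regulators or sterol transfer and 7 fatty acid steps.

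Cholesterol is built from acetyl-CoA through mevalonate, farnesyl diphosphate and squalene, while fatty acids are built from the same precursor by acetyl-CoA carboxylase and fatty acid synthase. Both routes are under the transcription factors SREBP-1 and SREBP-2, which the protein SCAP escorts from the endoplasmic reticulum to the Golgi when sterols are scarce. The INSIG proteins hold SCAP back when sterols are plentiful, and many enzymes of the pathway rise and fall with sterol supply in cultured cells.

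Total RNA of each culture was hybridised to a one-colour Agilent array. Cells were transfected with liposomes carrying 6 µg of a pLKO.1 plasmid, received puromycin at 6 µg/mL after 12 h and were collected at 72 h. There was 1 array per group: the empty vector and a non-target shRNA as controls, and an shRNA against PARN, CNOT6, CNOT6L, CNOT7 or NOC (nocturnin, symbol NOCT). All 7 cultures thus shared the cell line, the transfection and the selection, and the transfections were transient. The labels list one and the same target accession for CNOT6L shRNA and NOC shRNA, that of NOC, so what CNOT6L shRNA was designed against is uncertain. The arrays with the empty vector, the non-target shRNA, PARN shRNA and CNOT6 shRNA lay in slide row 1 and the other 3 in slide row 2, so for these 3 shRNAs the slide row and the silencing cannot be told apart. The image of the NOC shRNA array was processed on another day than the other 6.

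The targeted mRNA stood at 45.8% of the control mean with PARN shRNA, 54.2% with CNOT7 shRNA, 63.0% with CNOT6L shRNA, 74.3% with NOC shRNA and 89.6% with CNOT6 shRNA. For CNOT6L shRNA this was CNOT6L mRNA, which stood at 92.6% with CNOT7 shRNA and 90.6% with NOC shRNA, in the same slide row. NOCT mRNA also stood at 78.1% with CNOT7 shRNA and 90.7% with CNOT6L shRNA, in the same slide row as NOC shRNA. It differed by -0.41 log2 between the controls (non-target minus empty vector). With NOC shRNA, NOCT differed by -0.64 from the empty vector and -0.22 from the non-target shRNA. With CNOT6 shRNA, CNOT6 mRNA differed from them by -0.21 and -0.11. The 75th percentile of signal, to which each array was scaled, ran from 1366 to 3251 in slide row 1 and from 3195 to 3986 in slide row 2. A level below is the log2 signal of a gene relative to that percentile of its array, compared between arrays and not between genes. In such bulk RNA, fewer expressing cells and less RNA per cell cannot be told apart. Spots of the same probe differed by a median SD of 0.048 to 0.073 log2, which is printing error only. Of 10 squamous markers, 6 were above background on all arrays (SOX2, KRT6A, KRT15, DSC3, PKP1 and PERP). By contrast, TP63 was above it on 2 arrays, KRT5 on 4 and KRT14 and DSG3 on 1 each. The general epithelial markers EPCAM, CDH1, KRT8 and KRT18 were above background on all arrays. So were all 3 blood, all 4 neuroendocrine, all 4 adipocyte and liver, 3 of 4 fibroblast and 3 of 4 lung adenocarcinoma markers. Thus this mark does not set cell types apart.

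Whether silencing of a deadenylase moves the pathway was addressed first by a rule of size, a change of 2-fold or more that had the same sign against both controls. No gene of the 31 met it with any of the 5 shRNAs. Of the 17836 named genes above background on at least 2 arrays, 0.129% were higher and 0.353% lower by this rule with PARN shRNA, 0.241% and 0.275% with CNOT6 shRNA, 0.185% and 0.701% with CNOT6L shRNA, 0.185% and 0.824% with CNOT7 shRNA, and 0.325% and 1.09% with NOC shRNA. At such shares a set of 31 genes holds on average fewer than 1 call per array. All 5 shRNA arrays stood above both controls for 0 of 31 genes (2.73% of named genes) and below both for 0 (4.20%). When the 5 shRNA arrays were set against the 2 controls with limma, 0 of 38091 probes passed at an adjusted p of 0.05 (0% called), and none of the 31 genes had an unadjusted p under 0.05, against 1428 probes (3.75%) in all. The smallest adjusted p over all probes was 0.474. None of the 5 targeted mRNAs passed either, so the lack of calls cannot show that the pathway was unmoved. The genes were split around the controls, with 19 above 0 and 12 below 0 and a median of 0.01 log2. This median pools shifts of opposite sign. Against the control mean, 27 of 31 genes stood below 0 with PARN shRNA and 23 with CNOT6 shRNA. By contrast, 23, 23 and 26 stood above 0 with CNOT6L, CNOT7 and NOC shRNA. Named genes above background on all arrays, with levels in the range of the 31, were taken for comparison. Of these, 46.6% stood above 0 with PARN shRNA and 45.9% with CNOT6 shRNA. With CNOT6L, CNOT7 and NOC shRNA 51.2%, 52.4% and 51.2% did. Within slide row 1, PARN and CNOT6 shRNA against both controls gave 0 called probes (0% called) and 416 with an unadjusted p under 0.05. Among these, FADS1 was the only gene of the 31, at -0.49 ± 0.18 (SE), with an unadjusted p of 0.0308 and an adjusted p of 1 in limma.

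**Figure D1:**
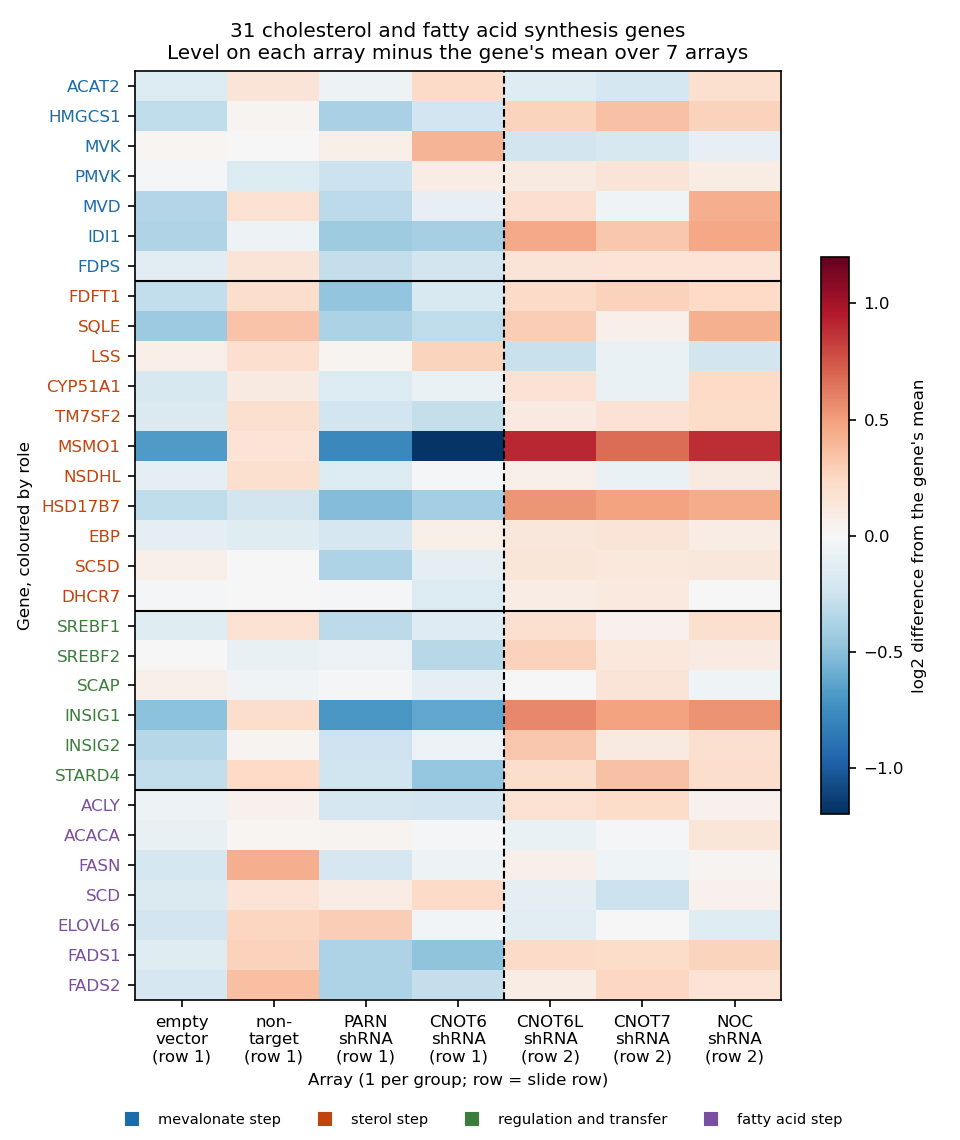
Each row is 1 of the 31 genes, each column 1 of the 7 arrays (slide row in brackets), and the colour is the log2 level minus the mean of that gene over the 7 arrays. MSMO1, INSIG1 and HSD17B7 have the widest ranges (2.08, 1.28 and 1.05 log2), and most sterol genes are low (blue) on the empty-vector, PARN shRNA and CNOT6 shRNA arrays.

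The controls differed from each other across the pathway. On the non-target array 25 of 31 genes stood above their value on the empty-vector array, with a median of 0.32 log2 (1.25-fold). Of named genes above background on at least 2 arrays 44.4% did, with a median of -0.05. Genes with levels in the range of the 31 had a median of 0.05 and 57.0% stood above 0. The shift was seen in every role, at a median of 0.30 over mevalonate steps (5 of 7 above 0), 0.30 over sterol steps (9 of 11), 0.35 over regulators (4 of 6) and 0.42 over fatty acid steps (7 of 7). No gene reached 2-fold, against 0.572% of named genes higher and 11.2% lower on the non-target array. Those named genes include dim ones, and shares at 2-fold in the level range of the 31 are not given. On the empty-vector array 91.5% of probes were above background, and on the non-target array 82.0%. With 1 array per plasmid the shift between the controls has no replicate check, and without scaling between arrays its median turned to -0.17. MSMO1 differed most, by 0.84, followed by SQLE at 0.78, INSIG1 at 0.70, FASN at 0.65 and FADS2 at 0.57.

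For that reason each shRNA array was read against each control separately, and the comparisons share those control arrays. Against the empty vector, the 31 genes had a median of -0.07 with PARN shRNA, 0.07 with CNOT6 shRNA, 0.28 with CNOT6L shRNA, 0.28 with CNOT7 shRNA and 0.34 with NOC shRNA. Against the non-target shRNA the medians in the same order were -0.35, -0.27, 0.01, 0.01 and 0.03. Thus by these medians PARN and CNOT6 shRNA arrays were near the empty vector and below the non-target array. The arrays of slide row 2 were near the non-target array and above the empty vector. The roles differed against the non-target array with CNOT6L, CNOT7 and NOC shRNA. Fatty acid steps had medians of -0.27, -0.12 and -0.12, with 6 of 7 below 0 on each array. Regulators had 0.16, 0.15 and 0.09, sterol steps 0.06, 0.06 and 0.08, and mevalonate steps 0.02, 0.01 and 0.24. Named genes in the same range of levels had medians between -0.01 and 0.03 against the empty vector and between -0.05 and 0.00 against the non-target shRNA. Against the empty vector, 28 of 31 genes stood above 0 with CNOT6L shRNA, 27 with CNOT7 shRNA and 28 with NOC shRNA. Of named genes in the same range 53.7%, 54.3% and 52.8% did. Against the non-target shRNA, 26 of 31 stood below 0 with PARN shRNA and 25 with CNOT6 shRNA. Above 0 there were 5 and 6 of the 31, and 43.3% and 43.7% of named genes in the same range.

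**Figure D2:**
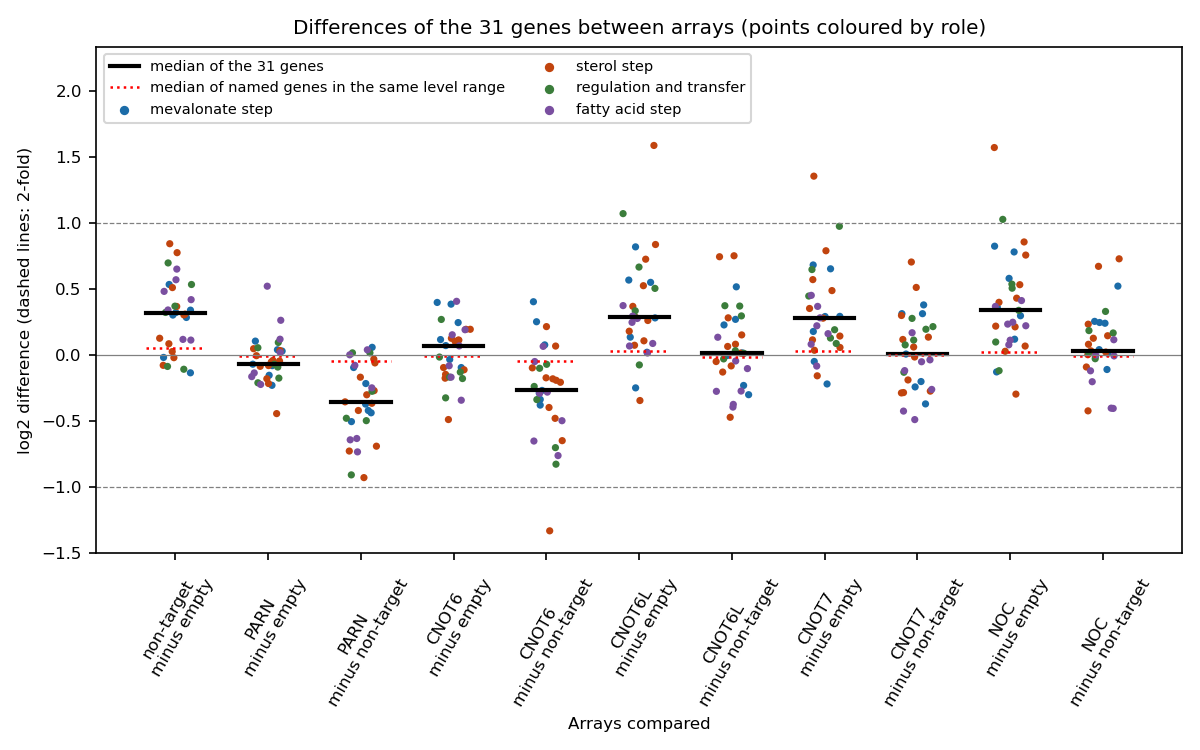
Each point is the log2 difference of 1 gene between the 2 arrays named on the horizontal axis, coloured by role, with the median of the 31 genes as a black bar and that of named genes in the same level range as a dotted red bar. The black bar lies at -0.35 and -0.27 for PARN and CNOT6 shRNA against the non-target array and at 0.28 to 0.34 for the other 3 shRNAs against the empty vector, and the largest differences belong to MSMO1.

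A difference of 2-fold from a lone control was reached by MSMO1 and INSIG1. MSMO1 differed from the empty vector by 1.59 log2 with CNOT6L shRNA, 1.35 with CNOT7 shRNA and 1.57 with NOC shRNA, and from the non-target array by -1.33 with CNOT6 shRNA. INSIG1 differed from the empty vector by 1.07 with CNOT6L shRNA and 1.03 with NOC shRNA. Against the empty vector alone this made 2 of 31 genes higher with CNOT6L shRNA, 1 with CNOT7 shRNA and 2 with NOC shRNA, where 0.449%, 0.415% and 0.673% of named genes were higher. Against the non-target array alone 1 gene was lower with CNOT6 shRNA, where 1.16% of named genes were.

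The 3 arrays of slide row 2 were then set against the 4 of slide row 1 with limma, to see how the genes split by slide row. By this test 2603 of 38091 probes (6.83%) passed, 916 higher (2.40%) and 1687 lower (4.43%) in row 2. Of the 31 genes, 5 were higher in row 2 and none lower. They were the sterol enzymes MSMO1 and HSD17B7, the mevalonate enzymes IDI1 and HMGCS1, and the regulator INSIG1. The median over the 31 genes was 0.26 log2, with 26 above 0. It was -0.02 over named genes above background on at least 2 arrays. Over named genes in the same range of levels it was 0.02, with 53.5% above 0. By role, the median was 0.28 for mevalonate steps, 0.24 for sterol steps, 0.33 for regulators and 0.03 for fatty acid steps. All 3 row 2 arrays were above all 4 row 1 arrays for 12 genes, against 12.4% of named genes, and below them for LSS and MVK, against 14.4%. Of the 12, 3 were mevalonate steps, 6 sterol steps and 3 regulators, and none was a fatty acid step. Of the 10 squamous markers, 8 were above background on at least 2 arrays, with a median of -0.07 between rows. By limma 1 of them was higher in row 2 (KRT6A, 0.99, adjusted p 0.0180) and 1 lower (SOX2, -0.50, adjusted p 0.0351), and their part in the result was not tested. The call is not firm, as 15 of the 31 genes passed without the non-target array, 3 without the empty vector, 2 without PARN or CNOT7 shRNA, 1 without CNOT6L or NOC shRNA, and 0 with the deposited series table. The share of all probes called in these runs is not given. The counts thus show only how the call depends on the arrays and values used. Since row 1 holds both controls and PARN and CNOT6 shRNA, the spread in this test includes the difference between the control plasmids.

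**Figure D3:**
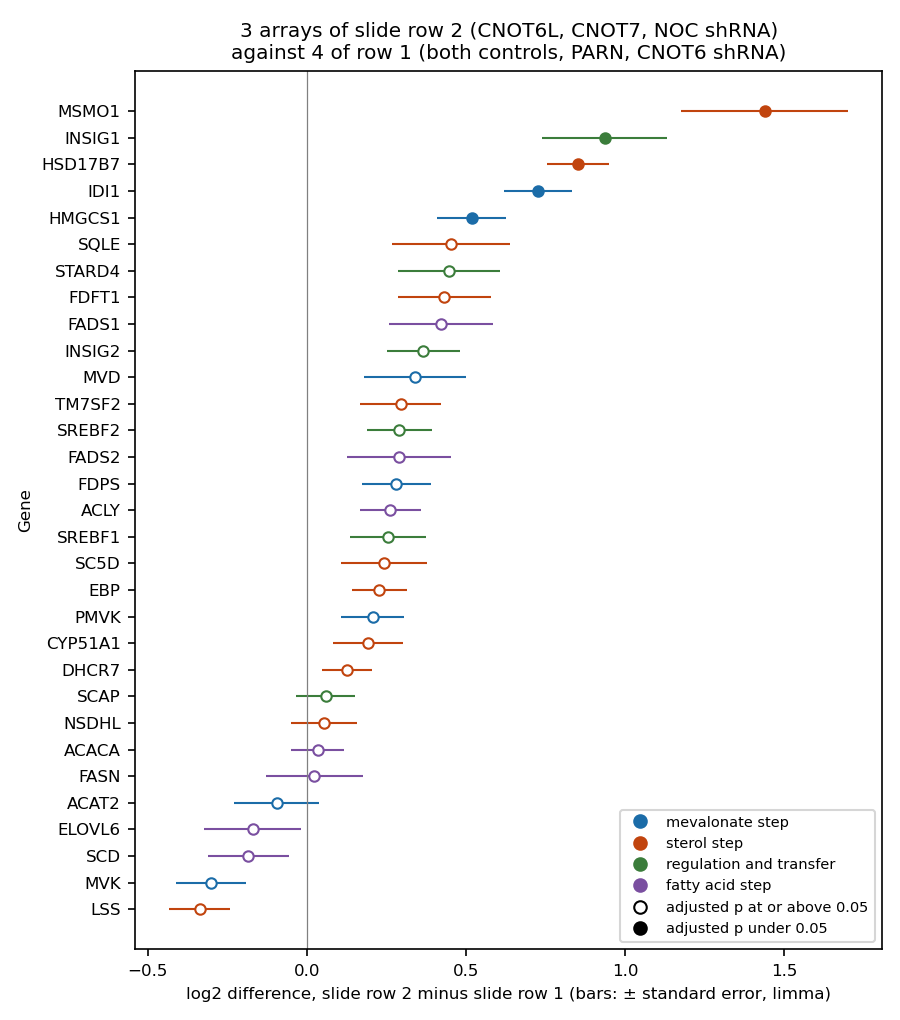
Points give the limma estimate of the log2 difference between slide row 2 (3 arrays) and slide row 1 (4 arrays) for each gene, bars the standard error, and filled points an adjusted p under 0.05. The filled points are MSMO1 (1.44), INSIG1 (0.94), HSD17B7 (0.85), IDI1 (0.73) and HMGCS1 (0.52), while MVK (-0.30) and LSS (-0.34) are lowest.

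The upstream sequences of these 5 genes and of SREBF2 are printed, because the 5 moved together and SREBF2 encodes SREBP-2. They are the 250 bases before the start in the RefSeq promoter table of build GRCh38.p14, each read 5′ to 3′ along its own gene, at chr4:165327419-165327668 on the plus strand, chr1:162790452-162790701 on the plus strand, chr7:155297628-155297877 on the plus strand, chr5:43313413-43313662 on the minus strand, chr10:1056705-1056954 on the minus strand and chr22:41832855-41833104 on the plus strand, in this order. For HMGCS1 and IDI1, which have 2 and 3 starts in the table, the window listed first is given, and for IDI1 both motifs below occur in another window and not in this one. Capitals mark CACNCCA, the core of the sterol regulatory element to which SREBPs bind, and CCAAT, the site of the cofactor NF-Y, on either strand.
MSMO1: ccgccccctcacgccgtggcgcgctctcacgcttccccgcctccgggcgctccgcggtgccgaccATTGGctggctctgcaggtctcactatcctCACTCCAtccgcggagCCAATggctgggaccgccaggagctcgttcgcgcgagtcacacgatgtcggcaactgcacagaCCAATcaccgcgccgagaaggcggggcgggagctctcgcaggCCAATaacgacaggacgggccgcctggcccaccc
HSD17B7: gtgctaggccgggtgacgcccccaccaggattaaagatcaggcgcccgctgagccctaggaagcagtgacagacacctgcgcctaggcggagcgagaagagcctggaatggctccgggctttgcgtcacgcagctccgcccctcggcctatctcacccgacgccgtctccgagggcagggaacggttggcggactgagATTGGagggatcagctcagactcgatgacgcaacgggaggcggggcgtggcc
INSIG1: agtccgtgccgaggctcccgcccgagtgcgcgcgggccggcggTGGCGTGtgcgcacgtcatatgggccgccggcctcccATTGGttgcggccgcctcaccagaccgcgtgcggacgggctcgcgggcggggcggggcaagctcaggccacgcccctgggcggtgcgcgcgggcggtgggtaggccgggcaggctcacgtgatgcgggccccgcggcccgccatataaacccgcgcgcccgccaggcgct
HMGCS1: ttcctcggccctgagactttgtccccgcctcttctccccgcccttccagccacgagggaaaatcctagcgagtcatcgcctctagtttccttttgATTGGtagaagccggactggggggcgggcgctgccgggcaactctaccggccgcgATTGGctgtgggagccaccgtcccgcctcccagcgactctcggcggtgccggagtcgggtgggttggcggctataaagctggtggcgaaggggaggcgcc
IDI1: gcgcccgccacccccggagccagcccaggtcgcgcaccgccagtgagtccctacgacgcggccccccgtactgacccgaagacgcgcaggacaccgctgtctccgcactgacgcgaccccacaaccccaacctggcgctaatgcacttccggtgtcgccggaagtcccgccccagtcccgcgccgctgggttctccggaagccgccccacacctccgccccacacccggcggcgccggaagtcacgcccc
SREBF2: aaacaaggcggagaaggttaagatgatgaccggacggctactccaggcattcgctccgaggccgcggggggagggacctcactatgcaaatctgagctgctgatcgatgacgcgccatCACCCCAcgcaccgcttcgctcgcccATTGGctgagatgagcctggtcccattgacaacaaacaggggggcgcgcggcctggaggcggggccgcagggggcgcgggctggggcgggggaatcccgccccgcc

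The core was found in the printed windows of MSMO1 (CACTCCA, 155 bases before the start), INSIG1 (TGGCGTG, its reverse complement form, 207 bases before) and SREBF2 (CACCCCA, 132 bases before), where it lies within the longer form TCACNCCAC. The window of SREBF1, which encodes SREBP-1 and is not printed, held neither the core nor CCAAT. The table held 27 of the 31 genes in 37 windows, not ACAT2, FDFT1, SQLE and FASN. The core was present in 11 of 37 windows (29.7%) and in 14.7% of all 35116 windows, the longer form in 1 (2.70%) and 0.883%, and CCAAT in 23 (62.2%) and 32%. These are matches of letters, which show no binding. The words of the core and of CCAAT do not overlap in the printed windows.

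MSMO1, the methylsterol monooxygenase that starts removal of the C4 methyl groups of lanosterol products, had the widest range of the set, 2.08 log2 (4.22-fold). It stood at -1.76 with the empty vector, -0.92 with the non-target shRNA, -1.84 with PARN shRNA, -2.25 with CNOT6 shRNA, -0.17 with CNOT6L shRNA, -0.40 with CNOT7 shRNA and -0.19 with NOC shRNA. It was highest on the 3 arrays of row 2 and lowest with CNOT6 shRNA, and the non-target array lay between. The probe had 10 spots, and their largest SD on an array was 0.08. Between the rows it differed by 1.44 ± 0.26 (SE), with an adjusted p of 0.0171 in limma. HSD17B7, the ketosterol reductase of the same demethylation, stood at 0.10, 0.18, -0.12, 0.00, 0.94, 0.89 and 0.86 in the same order of arrays. Here the controls lay close together, and the rows did not overlap. The difference between rows was 0.85 ± 0.10, with an adjusted p of 0.00329 in limma, and the other 2 probes of the gene gave 0.78 and 0.83. HSD17B7 has a pseudogene of near-identical sequence, so its probes may read both.

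INSIG1, which retains SCAP and the SREBPs in the endoplasmic reticulum and is itself an SREBP target, stood at -0.33 with the empty vector, 0.37 with the non-target shRNA, -0.54 with PARN shRNA, -0.45 with CNOT6 shRNA, 0.75 with CNOT6L shRNA, 0.65 with CNOT7 shRNA and 0.70 with NOC shRNA. Row 2 was above row 1 throughout, and within row 1 the non-target array stood apart from the rest. The rows differed by 0.94 ± 0.20, with an adjusted p of 0.0273 in limma. Its paralogue INSIG2 stood at -0.62, -0.25, -0.53, -0.35, 0.04, -0.18 and -0.09 in this order. The rows did not overlap, but the difference of 0.37 ± 0.12 did not pass in limma (adjusted p 0.0904). A further INSIG2 probe differed by 0.53 between rows.

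**Figure D4:**
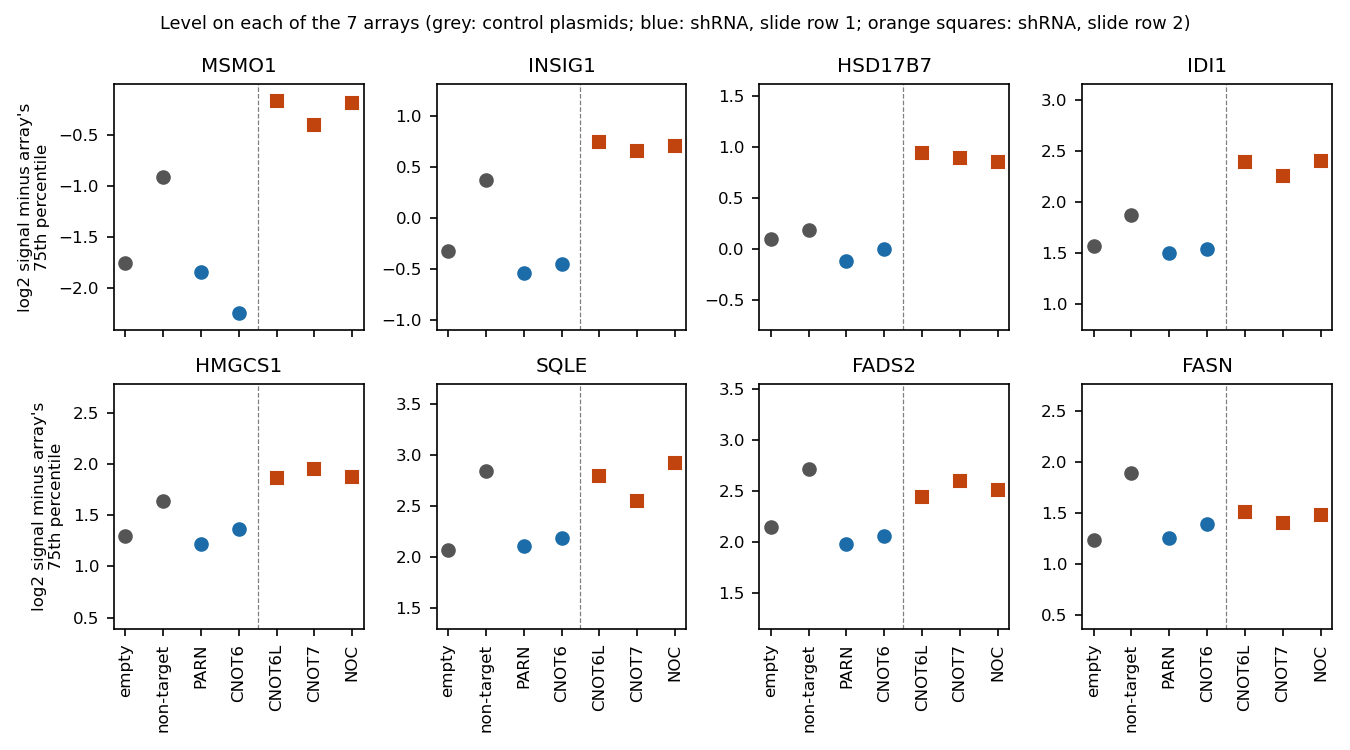
Log2 level (signal minus the 75th percentile of the array) of 8 genes on the 7 arrays, with the same height of axis in each panel, control plasmids in grey, shRNAs of slide row 1 in blue and of slide row 2 as orange squares. HSD17B7 and IDI1 separate by slide row, with controls that differ by 0.09 and 0.30, whereas SQLE, FADS2 and FASN are highest or nearly so on the non-target array.

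IDI1, the isomerase of isopentenyl diphosphate, stood at 1.57 with the empty vector, 1.87 with the non-target shRNA, 1.50 with PARN shRNA, 1.54 with CNOT6 shRNA, 2.39 with CNOT6L shRNA, 2.25 with CNOT7 shRNA and 2.39 with NOC shRNA. The rows did not overlap, and differed by 0.73 ± 0.11 (adjusted p 0.00852 in limma). HMGCS1, the cytosolic HMG-CoA synthase, stood at 1.30, 1.64, 1.22, 1.37, 1.87, 1.95 and 1.88 in this order. Its rows differed by 0.52 ± 0.11 (adjusted p 0.0267 in limma), and the non-target array was again the highest of row 1. MVK, mevalonate kinase, went the other way, at 2.36, 2.34, 2.40, 2.75, 2.11, 2.14 and 2.24. It was highest with CNOT6 shRNA and lower on every row 2 array than on any of row 1, by -0.30 ± 0.11, which did not pass (adjusted p 0.130 in limma). ACAT2, the cytosolic thiolase of the first step, stood at 1.62, 1.94, 1.73, 2.02, 1.64, 1.57 and 1.98, and its rows overlapped. The remaining mevalonate genes PMVK, MVD and FDPS differed between rows by 0.21, 0.34 and 0.28 with adjusted p of 0.227, 0.222 and 0.145 in limma.

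SQLE, squalene epoxidase, stood at 2.07 with the empty vector, 2.84 with the non-target shRNA, 2.12 with PARN shRNA, 2.19 with CNOT6 shRNA, 2.79 with CNOT6L shRNA, 2.56 with CNOT7 shRNA and 2.92 with NOC shRNA. The non-target array was within the values of row 2, and the other 3 arrays of row 1 were below them. The difference between rows was 0.45 ± 0.18, with an adjusted p of 0.163 in limma. LSS, lanosterol synthase, stood at 0.85, 0.98, 0.81, 1.05, 0.51, 0.69 and 0.56, lower on each row 2 array than on any of row 1, by -0.34 ± 0.10 (adjusted p 0.0680 in limma). A further LSS probe designed on another transcript moved the opposite way by 0.51, so the probes disagreed on the direction. DHCR7, the reductase that yields cholesterol itself, had a narrow range of 0.29, at 3.70, 3.73, 3.70, 3.56, 3.81, 3.85 and 3.73. Although its rows did not overlap, the difference was 0.12 ± 0.08, which did not pass (adjusted p 0.353 in limma).

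Of the other sterol genes, the squalene synthase FDFT1 differed between rows by 0.43, the reductase TM7SF2 by 0.29, the desaturase SC5D by 0.24, the isomerase EBP by 0.23, the demethylase CYP51A1 by 0.19 and the dehydrogenase NSDHL by 0.05. The lowest adjusted p among these 6 was 0.105 in limma, for FDFT1. FDFT1 also differed by 0.51 between the controls, while EBP and SC5D differed between them by -0.02 and -0.08.

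Neither SREBP gene passed the test between rows. SREBF1, which encodes SREBP-1, stood at 1.90 with the empty vector, 2.22 with the non-target shRNA, 1.72 with PARN shRNA, 1.88 with CNOT6 shRNA, 2.23 with CNOT6L shRNA, 2.09 with CNOT7 shRNA and 2.23 with NOC shRNA. SREBF2, which encodes SREBP-2, stood at 1.20, 1.11, 1.13, 0.88, 1.49, 1.33 and 1.30 in this order. SREBF1 was lowest with PARN shRNA and high with the non-target shRNA, whereas SREBF2 was lowest with CNOT6 shRNA and its controls were close. Between rows they differed by 0.26 ± 0.12 and 0.29 ± 0.10, with adjusted p of 0.215 and 0.117 in limma. A further SREBF1 probe was highest with CNOT6 shRNA and differed by -0.10 between the controls and 0.05 between rows, so the SREBF1 probes disagreed. SCAP had one of the narrowest ranges, 0.27, at 0.40, 0.30, 0.31, 0.23, 0.33, 0.49 and 0.29, with its rows overlapping. STARD4, a cytosolic sterol carrier, differed by 0.53 between the controls and by 0.45 ± 0.16 between rows (adjusted p 0.123 in limma).

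The fatty acid genes had a median difference of 0.42 between the controls and 0.03 between slide rows. FASN, fatty acid synthase, stood at 1.23 with the empty vector, 1.89 with the non-target shRNA, 1.25 with PARN shRNA, 1.39 with CNOT6 shRNA, 1.51 with CNOT6L shRNA, 1.40 with CNOT7 shRNA and 1.48 with NOC shRNA. The non-target array was alone at the top, and the rows differed by 0.02 ± 0.15 (adjusted p 0.940 in limma). FADS2, a desaturase of polyunsaturated fatty acids, stood at 2.15, 2.72, 1.98, 2.06, 2.44, 2.60 and 2.51 in this order, again highest on the non-target array. Its neighbour in the same pathway, FADS1, stood at 1.48, 1.90, 1.26, 1.14, 1.86, 1.85 and 1.90. It was lowest with CNOT6 and PARN shRNA, and the non-target array lay at the top, next to the values of row 2.

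SCD, the stearoyl-CoA desaturase, stood at -0.91 with the empty vector, -0.57 with the non-target shRNA, -0.65 with PARN shRNA, -0.50 with CNOT6 shRNA, -0.84 with CNOT6L shRNA, -0.99 with CNOT7 shRNA and -0.69 with NOC shRNA. ELOVL6, which lengthens the chain of saturated fatty acids, stood at -2.75, -2.27, -2.23, -2.56, -2.66, -2.53 and -2.67 in this order. Both were lowest or nearly so on the empty-vector array without being high in row 2, and differed between rows by -0.18 and -0.17 (adjusted p 0.397 and 0.517 in limma). ACACA, the acetyl-CoA carboxylase, had the narrowest range of the set, 0.23, at 2.68, 2.80, 2.80, 2.75, 2.70, 2.77 and 2.92. A further ACACA probe differed by 0.26 between rows. ACLY, which supplies cytosolic acetyl-CoA from citrate, differed by 0.11 between the controls and by 0.26 ± 0.10 between rows (adjusted p 0.130 in limma).

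Among the arrays of slide row 2 the genes were nearly alike. Against the other arrays of that row, the median of the 31 genes was 0.01 with CNOT6L shRNA, -0.03 with CNOT7 shRNA and 0.00 with NOC shRNA, and the single values lay between -0.37 and 0.38. The median SD of a gene was 0.08 log2 over the 3 arrays of row 2 and 0.19 over the 4 arrays of row 1, while for named genes in the same range of levels it was 0.10 and 0.16. The SD was smaller in row 2 for 27 of 31 genes and for 71.4% of those named genes. Within row 1, PARN shRNA differed from CNOT6 shRNA by a median of -0.08. Of the 31 genes, 12 had their lowest value of the 7 arrays with PARN shRNA (16.4% of named genes did), 8 with CNOT6 shRNA (13.6%), 7 with the empty vector (8.71%) and none with the non-target shRNA (23.1%). These shares include dim genes, and shares in the level range of the 31 are not given.

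The other genes of lipid handling were read from a list of 54 genes of sterol uptake, export, storage and oxidation, SREBP cleavage and fatty acid activation, of which 52 were above background on all arrays. None was called at 2-fold against both controls with any shRNA, and none passed limma for the 5 shRNAs against controls. Between rows 3 of 54 were higher and 0 lower in limma (2.40% and 4.43% of probes). These were ACSL4, an acyl-CoA synthetase, at 0.93 (adjusted p 0.00908), LIPA, the lysosomal acid lipase, at 0.63 (0.0194), and NPC2, the lysosomal sterol carrier, at 0.61 (0.0164), named after their values were seen. The list had a median of 0.10 between the controls and 0.11 between rows, beside 0.32 and 0.26 for the 31 genes.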

How the data were processed

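One-colour Agilent arrays of 7 cultures were used, 1 per group, with groups taken from sample titles. Per the file headers, the scanner intensity of 62976 spots per array came from Feature Extraction 10.7.3.1. The deposited series table holds log2 values, made by the authors and centred on the median per probe. Its differences between arrays matched the scanner values within 0.02 log2 for 100% of probes above background on all arrays, after 1 shift per array.

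The values used were log2 processed signals scaled to the 75th percentile of their array, with control spots and outlier spots left out and spots of a probe averaged. A probe was above background where at least 50% of its spots were marked so. Of 42405 gene probes, 24827 were named through RefSeq accessions (GRCh38.p14, names only). Of the 31 genes, 26 had 1 probe and 5 had several, and the brightest was taken. Tests used limma 3.58.1 in R 4.3.3 (lmFit, eBayes with trend, two-sided, Benjamini-Hochberg over the 38091 probes that passed background on 2 or more arrays) and were tested on simulated data. Nothing shows separate cultures within a group, and the number of arrays limits precision. In the tests, different shRNAs or plasmids stand for replicates.

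Genes given in full were the regulators, the 3 highest and 3 lowest per shRNA against the control mean and the 3 widest and 3 narrowest ranges. HMGCS1, IDI1, SQLE and FASN were added after their values were seen. The members and lists were chosen with earlier results of these data known. Motifs were searched as spelled, on both strands, and other spellings of the sterol element were also looked at and are not reported. Some genes of these pathways are not reported here. Alternatives were quantile normalization, no scaling, normexp background correction (offset 50), the series table, outlier spots kept, the mean over probes of a gene, all probes, no trend, slide row as a term, a 4-fold threshold and leaving out each array.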

Additional observations from a re-analysis of the deposited data

How the results depend on the processing

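No paired analysis was possible because each group has 1 array. No gene of the 31 passed limma for 5 shRNAs against controls under any alternative of processing that was run or without any 1 array. In the main run this test called no probe at all, the targeted mRNAs included, so it cannot show that the pathway was unmoved. None passed with slide row as a term either. Row 2 holds no control, so that run compares only PARN and CNOT6 shRNA with the controls. It cannot speak for the other shRNAs. No scaling between arrays keeps overall brightness, and it moved the median of all named genes, relative to the non-target array, by 0.49 on the empty-vector array, -0.09 with PARN shRNA, -0.76 with CNOT6 shRNA, 0.64 with CNOT6L shRNA, 0.78 with CNOT7 shRNA and 0.46 with NOC shRNA. The median of the 31 genes between the controls (non-target minus empty vector) then turned to -0.17. Against the control mean it became -0.54 with PARN, -1.14 with CNOT6, 0.57 with CNOT6L and 0.69 with CNOT7 shRNA, and against the rest of slide row 2 it became 0.20 with CNOT7 and -0.24 with NOC shRNA. The number of genes called at 2-fold against both controls became 16 with CNOT6, 2 with CNOT6L, 3 with CNOT7 and 1 with NOC shRNA. Whole arrays moved in this run, and the share of named genes called in it is not given. With a lone control the number of the 31 genes called was 0 to 1 with CNOT6, 0 to 2 with CNOT6L, 0 to 1 with CNOT7 and 0 to 2 with NOC shRNA. Quantile normalization moved the median over genes, relative to the non-target array, by up to -0.15 (CNOT6 shRNA) and normexp by up to -0.14 (CNOT7 shRNA). Single genes moved by other amounts.

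The 5 genes called between slide rows became 18 without scaling, 8 with normexp, 2 without a trend and 0 with the series table, whose centring per probe removes the signal level that the trend uses. Without a trend the series table gave 2. Leaving out 1 array gave 1 to 15 genes, with 15 without the non-target array, 5 without CNOT6 shRNA, 3 without the empty vector, 2 without PARN or CNOT7 shRNA and 1 without CNOT6L or NOC shRNA. No share of all probes called is given for any of these runs, so the counts describe the processing and not the pathway.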
